A study of Mus musculus with 2 samples.

Results

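NF-kB is a family of dimeric transcription factors that drive inflammatory gene expression. Expression of 10 genes for its subunits, inhibitors and feedback targets was followed in cultured MS1 cells, which are mouse endothelial cells of pancreatic islet origin made immortal in culture. The genes were taken by symbol from a fixed list, and all 10 of the 10 were present among the 11405 genes of the deposited tables. Cells in the knockdown group carried a lentiviral short hairpin RNA against Pspc1, which encodes a paraspeckle RNA-binding protein. Cells in the control group, whose genotype label is wt, carried a lentiviral hairpin against LacZ, a bacterial gene that mouse cells lack. Both groups had therefore been transduced, and no untransduced cells were among the samples. Poly-A RNA was sequenced from 1 library per group, and the labels do not say whether a line was a clone or a pool.

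The data are a gene-level signal, scaled by the authors, whose values are whole multiples of 0.0197 in the Pspc1 shRNA library and of 0.0153 in the LacZ shRNA library. Each step was taken as 1 read; this is inferred from the values, and few genes lie near the step (2 with 10 steps or fewer in the Pspc1 shRNA library and 3 in the LacZ shRNA library), so read numbers and intervals rest on that reading. On the listed genes the Pspc1 shRNA library held 53518762 reads, of which the 10 members took 0.0931%, and the LacZ shRNA library 64009912 reads, of which they took 0.0878%. Each gene was compared as a log2 ratio of the Pspc1 shRNA value over the LacZ shRNA value, with 0.5 added to both. Each group has 1 library, which leaves the spread between cultures unknown, so no p-value is given and every difference is one between these 2 libraries. Brackets after a ratio give the 95% exact counting interval of the ratio without the added 0.5, which covers counting error alone. Pspc1 itself had values of 3.78 in the Pspc1 shRNA library and 28.8 in the LacZ shRNA library, 7.62-fold lower (log2 ratio -2.77 [-3.15 to -2.71]). Of 12 endothelial markers 11 were listed (Cldn5 was not), with summed values of 7007 in the Pspc1 shRNA library and 6765 in the LacZ shRNA library. They differed in both directions. Tie1 had 1355 with Pspc1 shRNA and 1079.5 with LacZ shRNA, Pecam1 had 2175 with Pspc1 shRNA and 2258 with LacZ shRNA, Cdh5 had 511 with Pspc1 shRNA and 859 with LacZ shRNA, and Kdr had 77.3 with Pspc1 shRNA and 149 with LacZ shRNA.

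In resting cells NF-kB dimers are held in the cytoplasm by IkB proteins. Cytokine and pathogen receptors signal through adaptors and ubiquitin chains to the IkB kinase complex, which marks IkB for degradation and so frees the dimers to enter the nucleus. There they switch on adhesion molecules and chemokines of inflamed endothelium, and also genes that end the response, among them the IkB genes themselves and the ubiquitin-editing enzyme A20. A slower, noncanonical route, started by receptors such as the lymphotoxin beta receptor, works through processing of the Nfkb2 product and its pairing with RelB.

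Several members are textbook targets of NF-kB, so the sequences before the starts of the members were searched for NF-kB letters. RefSeq promoter windows on GRCm38.p6 were found for 8 of the 10 genes, 11 windows in all, and the 250 bases before each start were searched on both strands. The motifs were GGNNTTTCC, GGGNNTTCC and the 10-base NF-kB consensus, which overlap one another. A match to any of the 3 was present in 7 of the 11 windows, against 10.4% of the 32851 windows of the table. Those windows belonged to Nfkbia, Nfkb2, Nfkbie, Tnfaip3 and Tnfaip2, while those of Rela, Birc3 and Traf1 held none. Capitals mark the matched letters in the 4 windows printed, each 5′ to 3′ and ending at the base before the start.
Nfkbia (chr12:55492648-55492897, minus strand): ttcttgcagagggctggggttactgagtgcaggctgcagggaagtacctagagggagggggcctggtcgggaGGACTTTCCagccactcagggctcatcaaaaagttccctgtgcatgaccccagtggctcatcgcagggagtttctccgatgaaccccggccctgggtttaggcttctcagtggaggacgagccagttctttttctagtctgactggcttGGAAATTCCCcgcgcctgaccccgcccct
Nfkb2 (chr19:46304487-46304736, plus strand): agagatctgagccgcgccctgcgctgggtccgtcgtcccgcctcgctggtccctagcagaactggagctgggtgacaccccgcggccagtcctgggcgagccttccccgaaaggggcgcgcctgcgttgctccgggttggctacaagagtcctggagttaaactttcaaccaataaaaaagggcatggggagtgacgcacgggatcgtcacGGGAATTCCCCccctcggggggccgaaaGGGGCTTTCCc
Nfkbie (chr17:45555450-45555699, plus strand): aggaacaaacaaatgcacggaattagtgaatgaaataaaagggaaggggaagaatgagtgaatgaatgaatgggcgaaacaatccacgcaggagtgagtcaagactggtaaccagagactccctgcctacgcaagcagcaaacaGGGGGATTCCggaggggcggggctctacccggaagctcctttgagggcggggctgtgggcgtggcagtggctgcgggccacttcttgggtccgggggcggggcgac
Tnfaip3 (chr10:19015411-19015660, minus strand): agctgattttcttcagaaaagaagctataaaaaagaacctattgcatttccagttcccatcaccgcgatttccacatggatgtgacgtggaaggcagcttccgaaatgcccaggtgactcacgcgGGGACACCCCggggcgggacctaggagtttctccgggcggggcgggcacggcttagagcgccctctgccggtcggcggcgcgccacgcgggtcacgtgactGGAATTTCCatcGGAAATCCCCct
In Nfkbia the matches lay 178 to 170 and 29 to 20 bases before the start, and in Nfkb2 the marked stretches lay 39 to 29 and 11 to 2 bases before it. Nfkb2 has 3 windows in the table, each with a match, and the one printed belongs to the most upstream start. The Nfkbie match lay 106 to 97 bases before its start, and those of Tnfaip3 lay 125 to 116, 24 to 16 and 12 to 3 bases before. Tnfaip3 has a second window, for another start, with no match. The window of Tnfaip2 is not printed, and its match to GGNNTTTCC lay 87 to 79 bases before the start. Tnfaip2 had a lower value in the Pspc1 shRNA library, while the 4 genes printed had higher ones. A match therefore did not go with 1 direction. These are matches of letters, and binding was not measured here.

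The 4 subunit genes did not move alike. Rela and Nfkb2 were the abundant subunits and both were somewhat higher in the Pspc1 shRNA library, Relb was about 2.02-fold higher, and Nfkb1 differed little. Since the RNA was from bulk cultures, fewer cells with a transcript and less transcript per cell cannot be told apart.

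Rela (ENSMUSG00000024927, mm10 chromosome 19, 5637483 to 5648130, plus strand) encodes p65, the subunit with the main activation domain of the canonical dimer. It had a value of 232 in the Pspc1 shRNA library and 167 in the LacZ shRNA library, from 11802 and 10871 reads. Its log2 ratio was 0.48 [0.44 to 0.52], or 1.40-fold, and 6.50% of the 5892 genes whose 2 values averaged at least 20 had a higher one. Nfkb2 (ENSMUSG00000025225, chromosome 19, 46304320 to 46312385, plus strand) encodes p100, which is both an inhibitor and the precursor of the DNA-binding subunit p52. Its value was 223 in the Pspc1 shRNA library and 162 in the LacZ shRNA library, with a log2 ratio of 0.46 [0.42 to 0.50]. The ratios of Rela and Nfkb2 were therefore close to each other. Exons of Nfkb2 overlap those of Psd over 299 bases and of AC114539.1 over 531 bases on the opposite strand, and without strand information such reads cannot be told apart. Both neighbours had far lower values: Psd had 20.3 with Pspc1 shRNA and 17.6 with LacZ shRNA, and AC114539.1 had 14.9 with Pspc1 shRNA and 17.3 with LacZ shRNA.

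Relb (ENSMUSG00000002983, chromosome 7, 19606217 to 19629438, minus strand), the partner of p52 in the noncanonical dimer, had the largest ratio of the 4 subunits. Its value was 56.0 in the Pspc1 shRNA library and 27.7 in the LacZ shRNA library, from 2844 and 1809 reads. The log2 ratio was 1.0021 [0.93 to 1.10], and 49 of the 5892 genes had a higher one. Nfkb1 (ENSMUSG00000028163, chromosome 3, 135584655 to 135691547, minus strand) encodes p105, the precursor of the p50 partner of p65. It was the only subunit gene with a lower value in the Pspc1 shRNA library, 47.5 against 52.9 in the LacZ shRNA library. Its log2 ratio was -0.15 [-0.23 to -0.08], and this sign did not hold when ratios were corrected for length and base composition (0.26 with merged exons of 12061 bp, 0.07 with the longest transcript of 4149 bp).

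**Figure D1:**
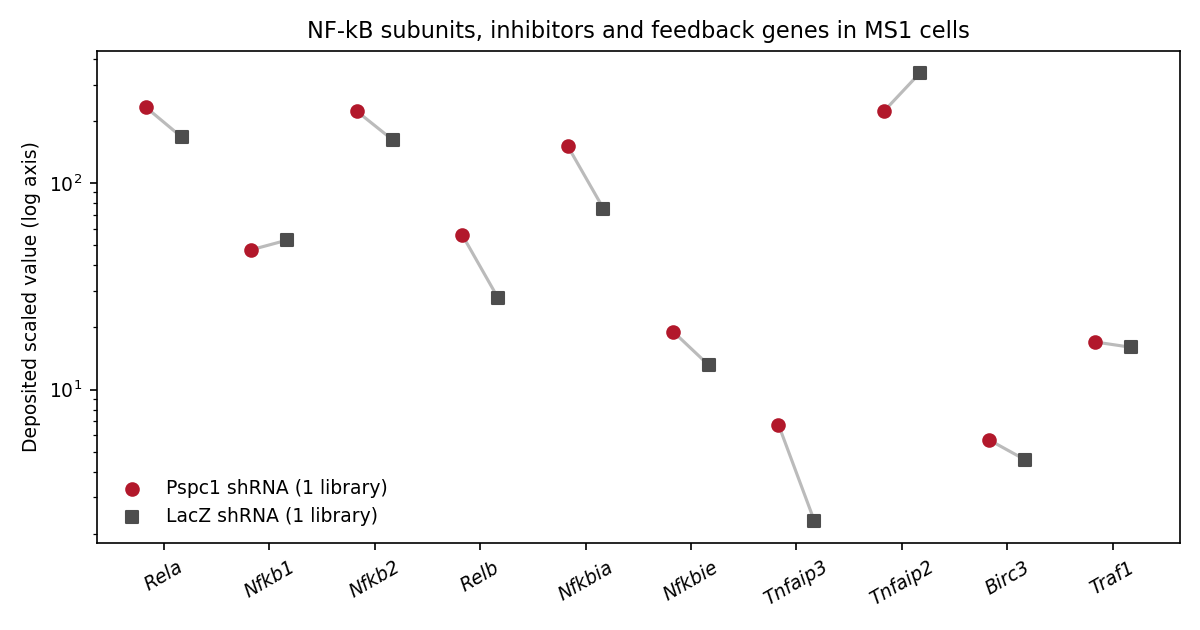
Deposited scaled value (log axis) of each member in the Pspc1 shRNA library (circles, left) and the LacZ shRNA library (squares, right), 1 library each, joined by a line. Of the 10 genes, 8 had the higher value in the Pspc1 shRNA library, against 45.2% of all 11405 genes. Of the 6 members that averaged 20 or more, 4 had the higher value there, against 55.0% of the 5892 genes at that level. Tnfaip2 (223 against 341) and Nfkb1 (47.5 against 52.9) had the lower value. The signs of the 2 smallest differences depended on the setting, that of Traf1 on scaling by total reads and that of Nfkb1 on the correction for length and base composition.

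Both IkB genes among the members had higher values in the Pspc1 shRNA library, and Nfkbia was the more abundant by far. Nfkbib, an IkB relative outside the members, had 65.1 with Pspc1 shRNA and 56.2 with LacZ shRNA (log2 ratio 0.21). Nfkbia (ENSMUSG00000021025, chromosome 12, 55489410 to 55492647, minus strand) encodes IkB-alpha, the inhibitor that NF-kB resynthesises fastest after it has been degraded. It had a value of 151 in the Pspc1 shRNA library and 75.1 in the LacZ shRNA library, from 7674 and 4904 reads. Its log2 ratio was 1.0035 [0.96 to 1.06], or 2.01-fold, and 48 of the 5892 genes had a higher one. Nfkbie (ENSMUSG00000023947, chromosome 17, 45555703 to 45563169, plus strand) encodes IkB-epsilon, a later and weaker feedback inhibitor. Its value was 19.1 in the Pspc1 shRNA library and 13.1 in the LacZ shRNA library, with a log2 ratio of 0.53 [0.41 to 0.68]. With a mean of 16.1, Nfkbie stood under the minimum of 20.

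The feedback and target genes went in different directions. Tnfaip3 (ENSMUSG00000019850, chromosome 10, 19000910 to 19015657, minus strand) encodes A20, which removes ubiquitin chains that carry the signal to the IkB kinases. It had the largest ratio of all 10 members at a low level, with values of 6.76 in the Pspc1 shRNA library and 2.31 in the LacZ shRNA library. These values rested on 343 and 151 reads, a 2.92-fold difference, and the log2 ratio was 1.37 [1.27 to 1.83]. Among all 11405 genes, 0.535% had a higher one. With 5 added in place of 0.5 the log2 ratio of this low gene was 0.68.

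Tnfaip2 (ENSMUSG00000021281, chromosome 12, 111442469 to 111455018, plus strand), a TNF-induced gene of endothelium whose product acts in membrane protrusions, went the other way. It had a value of 223 in the Pspc1 shRNA library and 341 in the LacZ shRNA library, from 11297 and 22230 reads. The value was 1.53-fold lower, with a log2 ratio of -0.61 [-0.65 to -0.58], and 95.1% of the 5892 genes had a higher ratio. An antisense gene that is not listed, Gm40578, overlaps its exons over 314 bases.

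Birc3 and Traf1 encode partners in the same receptor complexes, the ubiquitin ligase cIAP2 and a signalling adaptor. Birc3 (ENSMUSG00000032000, chromosome 9, 7848699 to 7873186, minus strand) had values of 5.69 in the Pspc1 shRNA library and 4.57 in the LacZ shRNA library. The log2 ratio of Birc3 was 0.29 [0.08 to 0.56], from 289 and 298 reads. Traf1 (ENSMUSG00000026875, chromosome 2, 34941750 to 34961772, minus strand) had 17 in the Pspc1 shRNA library (863 reads) and 16.0 in the LacZ shRNA library (1046 reads), with a log2 ratio of 0.08 [-0.05 to 0.22]. A difference of Traf1 was not detectable at this depth, and its sign turned when total reads set the scale (-0.02).

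**Figure D2:**
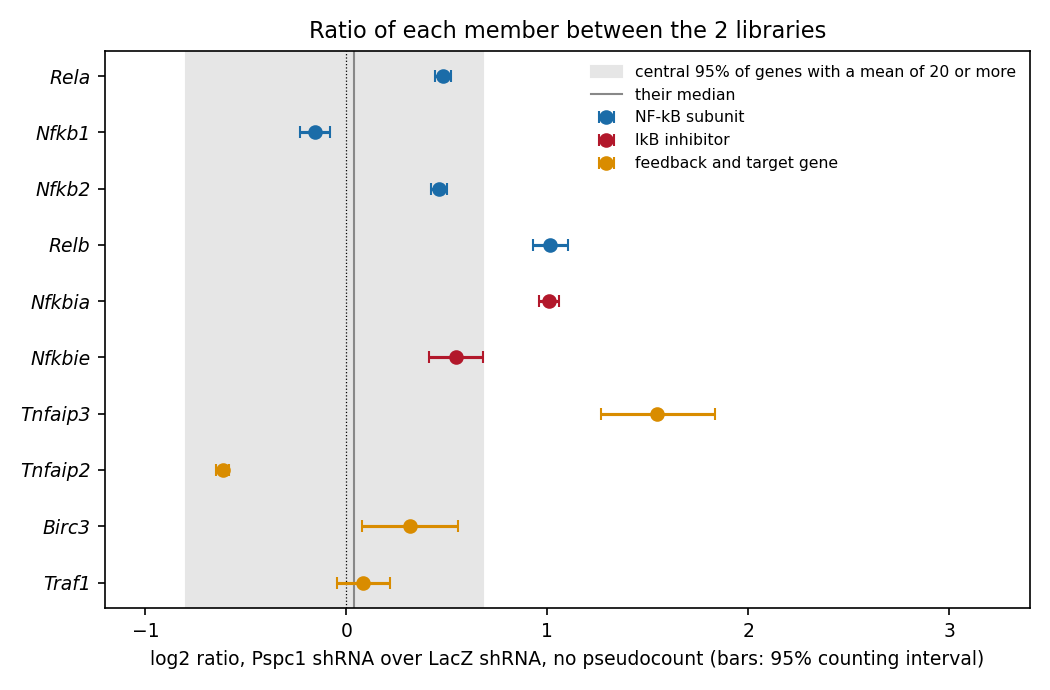
Log2 ratio of the Pspc1 shRNA over the LacZ shRNA value without an added constant, per member, with bars for the 95% counting interval. The grey band holds the central 95% of the 5892 genes that averaged at least 20, and the line marks their median of 0.04. Band and median were computed with 0.5 added. Relb, Nfkbia and Tnfaip3 lie above the band and none of the members lies below it. Tnfaip3 averaged 4.54, under that minimum. Over all 11405 genes the central 95% ran from -1.02 to 0.79.

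Counted by size, members passed more often as higher than as lower. Of the 5 members with a mean of at least 50, 1 was at least 2-fold higher (Nfkbia) and 0 at least 2-fold lower, against 0.551% and 0.937% of the 3629 genes of that mean. Relb also reached 2-fold, but its mean was 41.9, and with total reads its log2 ratio was 0.90. Of the 6 members with a mean of at least 20, 2 were at least 1.5-fold higher (Nfkbia and Relb), against 3.82% of the 5892 genes. In the same 6, 1 was at least 1.5-fold lower (Tnfaip2), against 5.52%. With no minimum, 3 of 10 were at least 1.5-fold higher (Tnfaip3 is added), against 4.81% of all genes, and 1 was lower, against 12.8%. The median log2 ratio of the 6 members was 0.47, against 0.04 over all genes of that mean. The members, too, were chosen with earlier results of these data known.

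The calls at the edges depended on the scaling. Nfkbia fell short of 2-fold when the libraries were scaled by total reads (log2 ratio 0.90), with 5 added in place of 0.5 (0.96) and after the correction for length and base composition (0.89). For Tnfaip2 the ratio was short of 1.5-fold under median-of-ratios scaling (-0.56) and under the trimmed mean of M values (-0.57). Nfkbia and Relb were at least 1.5-fold higher under each of the 6 settings of scaling, added constant and correction that were planned.

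**Figure D3:**
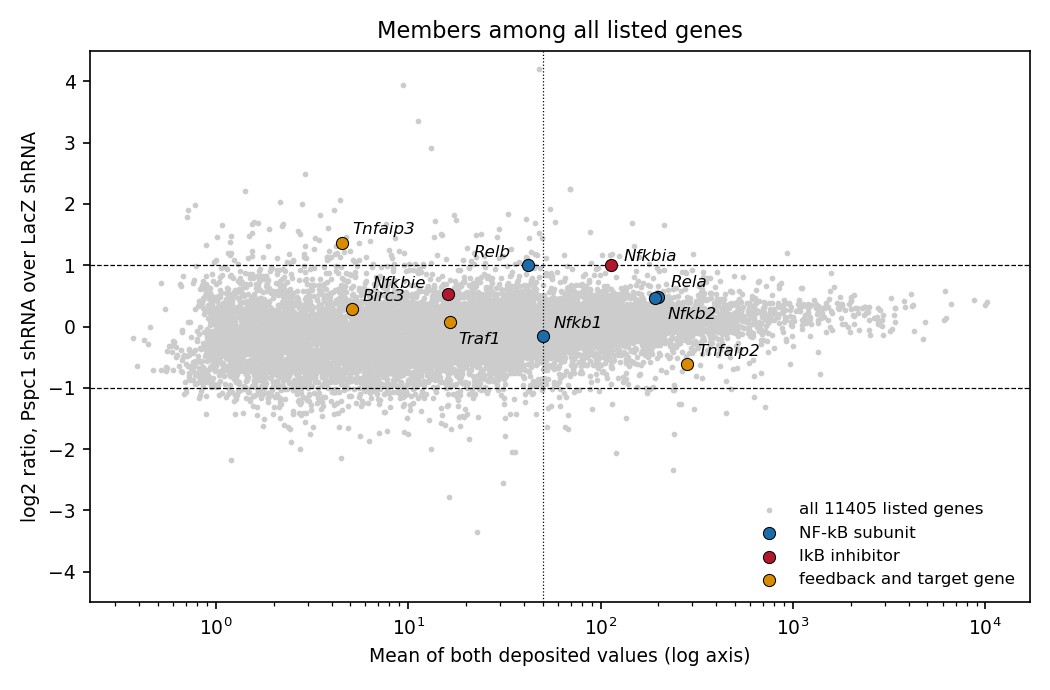
Log2 ratio (Pspc1 shRNA over LacZ shRNA, 0.5 added) against the mean of both values (log axis) for all 11405 listed genes in grey, with the 10 members in colour by role. Dashed lines mark 2-fold and the dotted line the mean of 50; Nfkbia lies on the upper 2-fold line at a mean of 113, and Relb on it at a mean of 41.9.

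Exon length and base composition moved with the ratios over all genes. For the genes that averaged at least 20, exonic length and the log2 ratio had a Spearman's rho of -0.32 over 5892 genes, and GC content and the ratio one of 0.28 over 5889. Genes are not independent replicates. Nfkbia, with 1610 bp of exons, belongs to the fifth of genes with the shortest exons, whose median log2 ratio was 0.16. Nfkb1 belongs to the fifth with the longest exons and to that with the lowest GC content, where the medians were -0.15 and -0.14. Rela, Nfkb2, Relb and Tnfaip2 all belong to the fifth with the highest GC content, where the median was 0.12. After the correction for both, the log2 ratio was 0.95 for Relb, 0.43 for Rela, 0.46 for Nfkb2, 0.45 for Nfkbie and -0.61 for Tnfaip2.

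Set against each other inside a library, the members form ratios that do not depend on how the libraries were scaled. Per kb of exon, Nfkbia stood at 1.24 times the level of Rela in the Pspc1 shRNA library and at 0.861 times in the LacZ shRNA library. That is a 1.44-fold difference of the ratio, with a log2 of 0.53 [0.46 to 0.59]. Relb per Rela was 0.191 in the Pspc1 shRNA library and 0.132 in the LacZ shRNA library, a log2 difference of 0.53 [0.44 to 0.63]. Nfkb2 per Rela differed by no more than counting error, at 0.642 with Pspc1 shRNA and 0.651 with LacZ shRNA (log2 difference -0.02 [-0.07 to 0.03]). Nfkb1 per Rela was lower in the Pspc1 shRNA library, 0.0521 against 0.0810 in the LacZ shRNA library (log2 difference -0.64 [-0.72 to -0.55]). That difference was -0.17 after the correction for length and base composition and -0.36 with transcript length, while those of Nfkbia (0.47) and Relb (0.53) stayed near their values under the first. Tnfaip2 per Rela was 0.590 in the Pspc1 shRNA library and 1.26 in the LacZ shRNA library (log2 difference -1.10 [-1.15 to -1.05]). Nfkbie per Rela was 0.0828 with Pspc1 shRNA and 0.0793 with LacZ shRNA, with a log2 difference of 0.06 [-0.08 to 0.20].

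Among the 4 subunits, Rela made up 53.1% of the summed value per kb in the Pspc1 shRNA library and 53.7% in the LacZ shRNA library. Nfkb2 made up 34.1% with Pspc1 shRNA and 34.9% with LacZ shRNA. Relb made up 10.1% with Pspc1 shRNA and 7.06% with LacZ shRNA, and Nfkb1 2.76% with Pspc1 shRNA and 4.35% with LacZ shRNA. With lengths from the longest transcript the share of Nfkb1 was 6.66% with Pspc1 shRNA and 10.2% with LacZ shRNA, so its level per length depends on the gene model. For every 100 units of subunit value per kb there were 70.2 units of Nfkbia and Nfkbie together in the Pspc1 shRNA library and 50.5 in the LacZ shRNA library. Nfkbib, which is outside the members, was not included. Nfkbia had the highest level per kb of the 10 in the Pspc1 shRNA library, followed by Rela, Nfkb2, Tnfaip2 and Relb. In the LacZ shRNA library Tnfaip2 came before Rela, Nfkbia, Nfkb2 and Relb. Traf1, Birc3 and Tnfaip3 were the lowest in both, at 1.93 or less per kb of exon. The order in the LacZ shRNA library depended on the gene model. Per kb of the longest transcript, Nfkb1 (12.76) came before Relb (8.47) there, and Nfkbie (4.353) came after Traf1 (4.665).

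**Figure D4:**
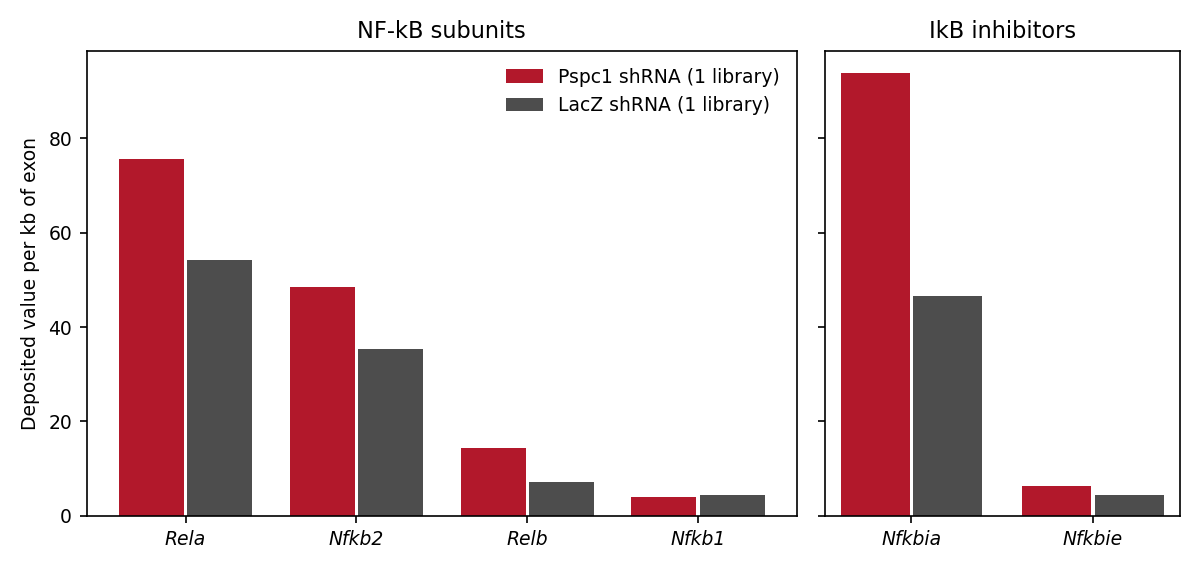
Deposited value per kb of merged exons for the subunit genes (left) and the IkB genes among the members (right), with the Pspc1 shRNA library in red and the LacZ shRNA library in grey. Bars start at 0 and stand for 1 library each. Nfkbia stands above Rela in the Pspc1 shRNA library (93.9 and 75.7 per kb) and lies under it in the LacZ shRNA library (46.7 and 54.2 per kb).

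The other genes of the pathway were described by 6 lists chosen by role, with 100 of 119 genes listed and 59 at a mean of at least 20. In the 5 lists of signalling genes 4 of 40 were at least 1.5-fold higher and 1 lower, against the 3.82% and 5.52% of all genes. In the list of NF-kB-induced targets 9 of 19 were higher and 1 lower. The lists were chosen with earlier results of these data known, so these counts are a description and no independent test.

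Among receptors and adaptors, 1 of 9 was at least 1.5-fold higher, 0 were lower and the median log2 ratio was 0.28. The one that passed was Ltbr, the lymphotoxin beta receptor that starts the noncanonical route, with values of 269 in the Pspc1 shRNA library and 178 in the LacZ shRNA library. The TNF receptor gene Tnfrsf1b had 34.6 with Pspc1 shRNA and 23.7 with LacZ shRNA, and Tnfrsf1a had 259 with Pspc1 shRNA and 204 with LacZ shRNA. Myd88, the adaptor of Toll-like and IL-1 receptors, had 52.1 with Pspc1 shRNA and 37.3 with LacZ shRNA.

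Of the TRAF and IAP relatives, 1 of 5 was at least 1.5-fold higher and the median was 0.24. This was Traf4, with 83.4 in the Pspc1 shRNA library and 47.9 in the LacZ shRNA library (log2 ratio 0.79). Traf2, an adaptor of TNF receptors, had 78.8 with Pspc1 shRNA and 66.9 with LacZ shRNA, and Birc5, which encodes the mitotic protein survivin, had 248 with Pspc1 shRNA and 209.5 with LacZ shRNA. Traf3, a brake on the noncanonical route, had 31.4 with Pspc1 shRNA and 35.6 with LacZ shRNA.

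The IkB kinase list had 1 of 8 at least 1.5-fold higher and a median of 0.12. It was Ikbke, an IkB kinase relative that inflammatory signals induce, with 32.5 in the Pspc1 shRNA library and 20.5 in the LacZ shRNA library. Ikbkg, the gene of the regulatory subunit, had 63.7 with Pspc1 shRNA and 52.4 with LacZ shRNA. Tab1, whose product activates the upstream kinase TAK1, had 44.1 with Pspc1 shRNA and 35.8 with LacZ shRNA, and the catalytic subunit gene Ikbkb had 33.6 with Pspc1 shRNA and 29.0 with LacZ shRNA. Of the 8 genes, 3 had a log2 ratio below 0, against 2653 of the 5892 genes that averaged at least 20. Chuk, the gene of the other catalytic subunit, IKK-alpha, which serves the noncanonical route, was under the minimum and named after its values were seen. It had 6.93 with Pspc1 shRNA and 12.1 with LacZ shRNA (log2 ratio -0.76 [-0.99 to -0.62]).

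In ubiquitin editing and IkB turnover 1 of 16 was higher and 1 lower, with a median of 0.04, close to that over all genes (0.04). The list median turned to -0.06 with total reads, which shifted all log2 ratios by -0.10. Tnip1, whose product binds A20 and restrains NF-kB, had 89.4 in the Pspc1 shRNA library and 45.1 in the LacZ shRNA library (log2 ratio 0.98). Cyld, a deubiquitinase that also restrains the pathway, had 16.6 in the Pspc1 shRNA library and 26.2 in the LacZ shRNA library (log2 ratio -0.65). After the correction for length and base composition the log2 ratio of Cyld was -0.18. Btrc, the ubiquitin ligase adaptor that recognises phosphorylated IkB, had 25.5 with Pspc1 shRNA and 33.5 with LacZ shRNA, a log2 ratio of -0.39 that became 0.22 after the same correction. Tnip2, another gene of an A20-binding protein, had 24.4 with Pspc1 shRNA and 20.04 with LacZ shRNA.

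Of the REL and IkB relatives only Nfkbib and Nfkbil1 reached a mean of 20, with log2 ratios of 0.21 and 0.13. Rel, which encodes the subunit c-Rel of lymphoid cells, had few reads, with 0.827 from 42 reads in the Pspc1 shRNA library and 0.828 from 54 reads in the LacZ shRNA library. Rel fell outside the rule on which genes are named. Nfkbiz and Bcl3, nuclear IkB relatives induced by inflammatory signals, were named after their values were seen. Nfkbiz had 12.8 in the Pspc1 shRNA library and 5.15 in the LacZ shRNA library (log2 ratio 1.24 [1.13 to 1.51]). Bcl3 had 3.35 with Pspc1 shRNA and 1.35 with LacZ shRNA, from 170 and 88 reads (1.06 [0.93 to 1.70]). With no minimum mean, 21 of the 100 listed genes of the 6 lists were at least 1.5-fold higher and 8 lower. Over all 11405 genes the shares were 4.81% higher and 12.8% lower. At a mean of at least 20 they were 3.82% and 5.52% of 5892 genes. Genes under that mean therefore passed more often in both directions, above all as lower. Their own shares over all genes were not counted. Of the 100 genes, 41 lay under the mean of 20, of which 8 were at least 1.5-fold higher and 6 at least 1.5-fold lower. The lower ones, also named after their values were seen, were Birc6 (-1.16), Cx3cl1 (-1.01), Itch (-0.98), Tlr4 (-0.84), Chuk (-0.76) and Birc2 (-0.61), with log2 ratios in brackets. The higher ones beside Nfkbiz and Bcl3 were Cxcl2, Lif, Ptgs2, Cxcl16, Irak1bp1 and Zc3h12a.

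The induced targets had the highest list median, 0.58, against 0.04 over all genes. Of the 19, 6 had a log2 ratio below 0, against 2653 of the 5892 genes that averaged at least 20. With no minimum mean the median of this list was 0.31, against -0.05 over all genes. The chemokine gene Cxcl1 had 91.2 in the Pspc1 shRNA library and 4.46 in the LacZ shRNA library, 20.5-fold higher. With 0.5 added its log2 ratio, 4.21 [4.18 to 4.53], was the largest of all 11405 genes. The related chemokine gene Cxcl2, named after its values were seen, was second by that ratio at a low level. It had 18.1 with Pspc1 shRNA and 0.705 with LacZ shRNA. Without the added 0.5 its difference, 25.65-fold, was larger than that of Cxcl1. Other chemokine genes, likewise named after their values were seen, went in different directions. Among those of low level, log2 ratios were -1.01 [-1.38 to -0.86] for Cx3cl1, -0.53 [-0.94 to -0.30] for Ccl5 and -0.05 [-0.27 to 0.17] for Cxcl10. Cxcl16 had 0.67 [0.50 to 1.97], from 47 reads with Pspc1 shRNA and 26 with LacZ shRNA. Ccl2, above the minimum, had a log2 ratio of 0.58 [0.52 to 0.65]. The kinase gene Nuak2 had 63.3 with Pspc1 shRNA and 18.5 with LacZ shRNA, and the AP-1 subunit gene Junb had 62.1 with Pspc1 shRNA and 22.4 with LacZ shRNA. Adhesion molecules that hold leukocytes to endothelium differed among themselves. Selp had 159 with Pspc1 shRNA and 69.8 with LacZ shRNA, Icam1 had 55.9 with Pspc1 shRNA and 25.9 with LacZ shRNA, and Vcam1 had 109 with Pspc1 shRNA and 64.2 with LacZ shRNA. E-selectin (Sele), under the minimum and named after its values were seen, had 10.97 with Pspc1 shRNA and 12.7 with LacZ shRNA (log2 ratio -0.20 [-0.37 to -0.06]). The macrophage growth factor gene Csf1 had 423 in the Pspc1 shRNA library and 186 in the LacZ shRNA library. Ier3, an immediate early gene, had 280.0 with Pspc1 shRNA and 146.9 with LacZ shRNA, and the proteoglycan gene Sdc4 had 41.1 with Pspc1 shRNA and 24.9 with LacZ shRNA. Clic4, which encodes an intracellular channel-family protein, passed 1.5-fold as lower, having 157 with Pspc1 shRNA and 256 with LacZ shRNA. The antioxidant gene Sod2 and the interferon regulatory factor gene Irf1, both common NF-kB targets, were named after their values were seen and had log2 ratios of -0.02 and -0.01; after the correction for length and base composition that of Sod2 was 0.41.

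**Figure D5:**
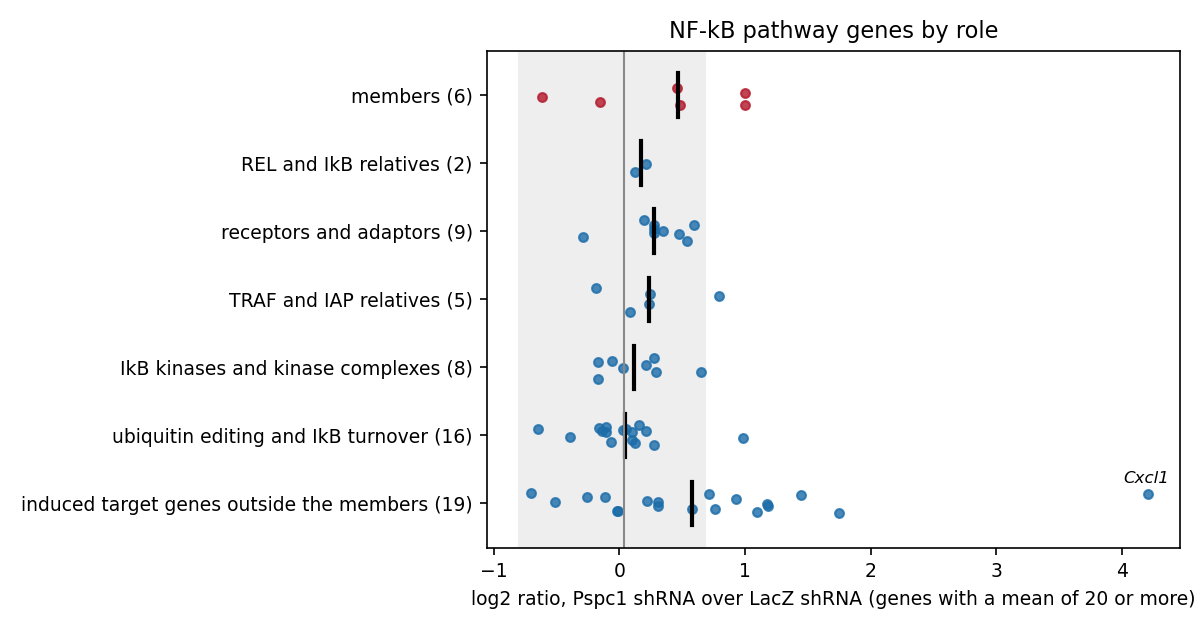
Log2 ratio (Pspc1 shRNA over LacZ shRNA) of genes with a mean of at least 20, for the members (red) and the 6 pathway lists (blue), with the number of genes in brackets and black bars at the medians. The grey band and line are the central 95% and the median of all 5892 genes of that mean; the medians run from 0.04 for ubiquitin editing to 0.58 for induced targets, with 0.47 for the members.

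Leukocytes also express NF-kB targets, so their markers were looked up beside these values. Of 12 leukocyte and macrophage markers only Cd68 and Cd14 were listed, with summed values of 125 in the Pspc1 shRNA library and 104 in the LacZ shRNA library, nearly all from Cd68. The defining markers Ptprc, Csf1r, Adgre1, Itgam and Tyrobp were not listed. Of 9 fibroblast and mural markers 2 were listed, Pdgfra and Pdgfrb, with summed values of 3.37 with Pspc1 shRNA and 1.87 with LacZ shRNA, and of 9 islet and acinar markers 0 were listed. The part of any such cells in the differences was not tested.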

How the data were processed

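Poly-A RNA of 2 libraries was measured. The files hold 1 scaled signal value per gene, made by the authors, and no raw counts. HISAT2 2.1.0, Trimmomatic 0.39, DESeq 1.39.0, featureCounts 2.0.0 and the build mm10 are named, without their roles, per the submitters' processing notes. How values were scaled and filtered, and on which annotation, is not given in the sources used here. Every value was a whole multiple of 1 step per library within 0.01 reads (100% in both). The step was taken as 1 read, which is inferred from the values and stated by no source.

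Values were used as deposited. Counting intervals are exact conditional binomial (Clopper-Pearson), and reads carry no molecular identifiers. Symbols were found for 11399 genes; exon lengths, overlaps and transcript GC came from GENCODE M21 (mm10). The correction for length and GC subtracted lowess trends (fraction 0.3). Calculations used Python 3.11.15, numpy 2.4.6, pandas 2.3.3, scipy 1.17.1 and statsmodels 0.14.6. They were tested on simulated reads that carried counting error alone, which cannot show how far cultures differ. All listed members were named; in each pathway list, genes of mean at least 20 that reached 1.5-fold, filled up to 4 by the largest absolute ratios. Members and lists were chosen with earlier results of these data known.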

Additional observations from a re-analysis of the deposited data

How the results depend on the processing

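No library could be left out, since each group has 1. The count of members at least 2-fold higher was 1 and became 0 when scaled by total reads, with a pseudocount of 5 or after the length and GC correction, 2 with a mean of at least 20 (Relb joins) and 3 with no minimum mean. The count at least 1.5-fold higher was 2 under every scaling, pseudocount and correction and 1 with a mean of at least 50; the count lower was 1, and 0 under median-of-ratios scaling or the trimmed mean of M values. The members' median log2 ratio of 0.47 became 0.51 with a trimmed mean, 0.52 with median-of-ratios and 0.37 with total reads, which shifted all log2 ratios by -0.10. Signs turned for Nfkb1 (0.26 after the length and GC correction, 0.0651 with transcript length, an alternative chosen after seeing the data) and Traf1 (-0.0186 with total reads); of 70 alternative values of the members, 49 lay within the counting interval. Pathway genes at least 1.5-fold higher numbered 13, and 21 with no minimum mean; those lower numbered 2, 1 with a pseudocount of 5 or the correction, and 8 with no minimum mean. With no minimum mean the list medians turned to -0.0497 for TRAF and IAP relatives and -0.0868 for IkB kinases (induced targets 0.31). The median over all genes turned as well, from 0.0378 to -0.0475. With total reads, which lowered the ratios of all genes, the median for ubiquitin editing turned to -0.0618. The log2 difference of Nfkbia per Rela, 0.53, was 1.16 with Nfkb1 as denominator. That 1.16 is uncorrected, and the ratio of Nfkb1 itself turned from -0.15 to 0.26 after the length and GC correction. A corrected difference with Nfkb1 as denominator was not computed. The causes of these shifts were not tested. Members of few reads (Birc3, Tnfaip3) have the widest intervals.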
